A study of Mus musculus with 3 samples.

Results

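Transcripts of apoptosis regulators were measured in mouse neural retina at postnatal day 10 on Affymetrix U74Av2 arrays, where a probe set, a group of short probes, gives 1 signal for a transcript. The members were the non-control probe sets with a single platform gene symbol matching a fixed name pattern that covers the Bcl2 family, caspases, inhibitors of apoptosis, TNF receptors and ligands with their adaptors, and genes named for p53 or for programmed cell death. This gave 99 probe sets of 73 genes, out of 12422 non-control probe sets and 8251 named genes. The 3 samples were pools of retinas from 3 to 4 wild-type littermates of Rp1-/- mice, on a mixed 129/SvEv and C57BL/6 background and collected between 1 and 2 pm. They form 1 group, so no test between conditions was possible and every comparison below is a description of 3 pools. The labels do not say whether the pools came from separate litters, and pools 2 and 3 have Rp1 in their titles, although the description of every sample gives wild type. Fewer cells of a type and less RNA per cell cannot be told apart in such whole-tissue samples.

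Apoptosis runs along a pair of routes that meet at the caspases, proteases that cut cell proteins after aspartate. In the mitochondrial route, BH3-only proteins and the effectors Bax and Bak1 act against anti-apoptotic proteins such as Bcl2, Bcl2l1 and Mcl1, and permeabilised mitochondria release cytochrome c, which assembles Apaf1 and caspase-9 into the apoptosome. In the receptor route, TNF family ligands engage death receptors, which recruit Fadd and caspase-8 or, through Tradd and Traf proteins, signal to NF-kB. In the rodent retina a part of the newly made neurons dies in the first postnatal weeks, and that wave was still running in the inner layers at about the age sampled here.

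Each array was given a background limit, the 90th percentile of its signals for 71 genes typical of other organs (88 probe sets). The limits of the 3 arrays were 336.7, 501.6 and 346.0, the highest being that of pool 2. A transcript under the limit may still be present, only below what the array separates from background. Of the 99 member probe sets, 22 (22.2%) were above background in all 3 pools, against 29.6% of all probe sets, 17 were above it in 1 or 2 pools, and 60 (60.6%) in none, against 54.5% of all. Counted as genes, each by its probe set of highest mean, 21 of 73 were above background in all pools, beside 36.3% of all genes, 13 in some and 39 in none, beside 46.2% of all genes for the last. In 6 sets the signal missed the limit in pool 2 alone. They were sets for Bcl2l11, Bnip3, Casp9, Dap3, Dapk2 and Pdcd7. Of all probe sets, 41.1%, 31.1% and 40.4% were above the limit in pools 1, 2 and 3, so pool 2 had the lowest share across the array. With a limit from the plain _at other-organ sets only, chosen after seeing the data, pool 2 had a limit of 321.3. All 6 sets exceeded it there. How many of all probe sets missed the limit in pool 2 alone was not counted.

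The count of probe sets by role showed where the members above background lay. All 3 probe sets for multidomain pro-apoptotic Bcl2 proteins were above background in every pool, as were 3 of 9 for anti-apoptotic Bcl2 proteins and 3 of 5 for Bnip proteins. By contrast, none of the 14 probe sets for TNF receptors and none of the 5 for TNF ligands was above background in any pool. With a lower limit, the 80th percentile of the other-organ signals, 6 of the 14 receptor and 2 of the 5 ligand sets exceeded it in at least 1 pool. The remaining 8 receptor and 3 ligand sets exceeded it in none, beside 39% of all probe sets. Caspases and the caspase-8-associated Casp8ap2 had 1 of 14 sets above background in all pools and 9 in none, and caspase inhibitors had 1 of 9 and 7. The caspase count depended on the limit. At the 80th percentile, 6 of the 14 caspase and 2 of the 9 inhibitor sets exceeded it in all pools, beside 44.4% of all probe sets. With a higher limit, the 95th percentile, fewer sets exceeded it in every pool. They were 1 of the 3 multidomain, 2 of the 9 anti-apoptotic and 1 of the 5 Bnip sets. Whether these roles differ in their share was not tested.

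**Figure D1:**
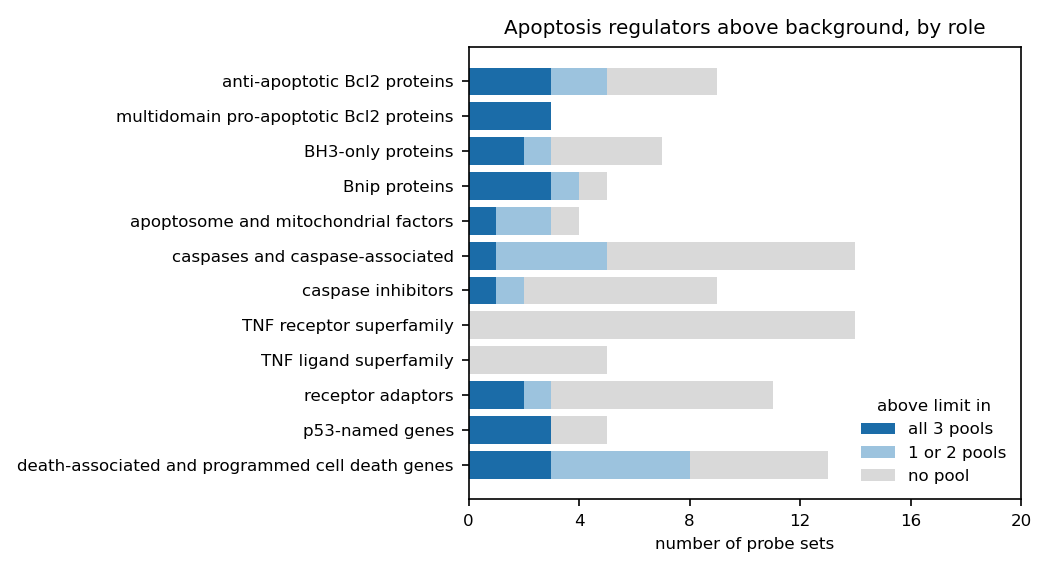
Number of member probe sets by role (horizontal axis), coloured by whether the signal exceeded the background limit in all 3 pools, in 1 or 2 pools or in none. The bars for TNF receptors (14 probe sets) and ligands (5) are grey throughout, and that for multidomain pro-apoptotic Bcl2 proteins (3) is dark throughout.

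The region upstream of the transcription start differed in CpG content between members above and not above background. Promoters with many CpG dinucleotides are typical of broadly expressed genes and CpG-poor ones of tissue-restricted genes. RefSeq promoters on build GRCm38.p6 were available for 63 of the 73 genes, and the 250 bases before each annotated start were read, averaging genes with several starts. The ratio of observed to expected CpG exceeded 0.6 in 16 of 20 genes above background in all pools (80%), in 11 of 11 above it in some, and in 10 of 32 above it in none (31.2%). Over all 6572 array genes with a promoter it did so in 58.4%. The share was 73.4% of those above background in all pools, 64.9% of those above it in some and 43.5% of those above it in none. Between genes above it in all pools and in none, the same direction thus held across the array. The median ratio was 0.78 in members above background in all pools and 0.49 in those above it in none, beside 0.76 and 0.53 for all array genes. No statistical test was run on this difference.

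The following 6 upstream regions, chosen after these values were seen, show CpG-rich and CpG-poor members on either side of the limit, each written 5′ to 3′ on the gene's strand with every CpG in capitals. Mcl1 (chr3:95658471-95658720, plus strand, 26 CpGs) and Casp2 (chr6:42264735-42264984, plus strand, 17 CpGs) were above background in all pools. So was Bak1 (chr17:27028628-27028877, minus strand, 8 CpGs), in spite of a low CpG ratio of 0.38. Casp1 (chr9:5298267-5298516, plus strand, 1 CpG) and Casp12 (chr9:5345226-5345475, plus strand, 1 CpG) were above background in no pool. Diablo (chr5:123524165-123524414, minus strand, 30 CpGs) was also not above background, in spite of a ratio of 0.98.
Mcl1: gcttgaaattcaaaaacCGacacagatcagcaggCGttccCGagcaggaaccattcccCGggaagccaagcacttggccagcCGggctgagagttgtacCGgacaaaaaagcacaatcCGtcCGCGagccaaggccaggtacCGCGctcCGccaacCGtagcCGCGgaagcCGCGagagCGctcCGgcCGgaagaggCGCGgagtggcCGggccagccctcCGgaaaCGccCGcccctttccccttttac
Casp2: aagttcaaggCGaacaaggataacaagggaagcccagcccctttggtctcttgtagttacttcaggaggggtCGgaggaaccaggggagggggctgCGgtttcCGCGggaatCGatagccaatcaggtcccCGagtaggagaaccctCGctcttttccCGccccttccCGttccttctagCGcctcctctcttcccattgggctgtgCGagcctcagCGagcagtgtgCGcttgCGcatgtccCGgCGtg
Bak1: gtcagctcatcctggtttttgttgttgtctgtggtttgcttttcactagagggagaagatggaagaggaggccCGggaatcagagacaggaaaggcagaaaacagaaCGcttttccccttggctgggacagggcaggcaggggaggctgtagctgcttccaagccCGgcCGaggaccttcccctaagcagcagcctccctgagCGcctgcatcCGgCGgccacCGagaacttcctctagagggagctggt
Casp1: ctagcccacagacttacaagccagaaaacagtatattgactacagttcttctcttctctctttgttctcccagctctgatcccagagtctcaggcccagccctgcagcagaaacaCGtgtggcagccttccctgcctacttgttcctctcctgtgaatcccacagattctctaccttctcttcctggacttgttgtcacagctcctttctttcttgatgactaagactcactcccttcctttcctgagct
Casp12: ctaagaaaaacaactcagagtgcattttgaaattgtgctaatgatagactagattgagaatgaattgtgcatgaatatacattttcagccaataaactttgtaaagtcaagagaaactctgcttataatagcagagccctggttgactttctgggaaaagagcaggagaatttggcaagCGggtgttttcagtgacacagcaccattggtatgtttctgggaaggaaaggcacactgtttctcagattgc
Diablo: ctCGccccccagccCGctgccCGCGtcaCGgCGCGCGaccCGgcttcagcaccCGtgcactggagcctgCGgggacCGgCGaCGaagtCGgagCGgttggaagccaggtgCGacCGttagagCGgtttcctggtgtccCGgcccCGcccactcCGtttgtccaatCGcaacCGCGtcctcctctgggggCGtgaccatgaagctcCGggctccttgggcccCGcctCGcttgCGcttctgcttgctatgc

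In the plot of upstream CpG content, the members above background in all or some pools sit mostly over the dashed line and the others spread over the whole axis. Of 3 short motifs searched on both strands of the same window, TATAAA occurred in 0 of 20 members above background in all pools and in 4 of 32 above it in none, beside 8.29% and 14.1% of array genes in the same classes. CCAAT occurred in 7 of 20 and 8 of 32, beside 41.2% and 39.1% of those array genes. GGGCGG, the GC box, occurred in 14 of 20 (70%) and 18 of 32 (56.2%), near the 66.7% and 49.8% of those array genes. In these counts a gene had a motif if any of its starts had it. Over all 32851 RefSeq promoters, each counted singly, the shares were 12.4% for TATAAA, 33.8% for CCAAT and 32.7% for GGGCGG. These shares per promoter are therefore not the same measure as the shares of genes. The 3 motifs were searched separately, and a match is a description of the letters, not a bound site.

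**Figure D2:**
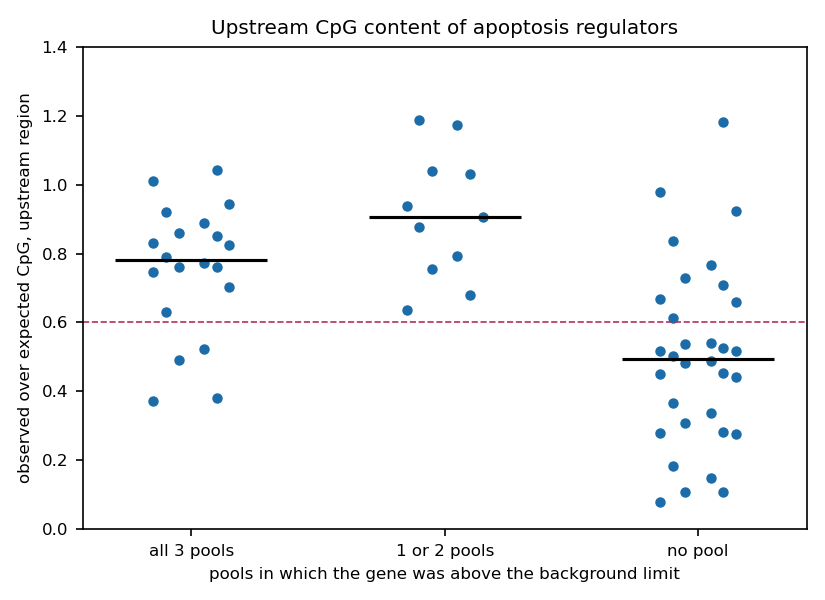
Ratio of observed to expected CpG in the 250 bases upstream of the start (vertical axis) for 63 member genes, grouped by the pools in which the gene was above the background limit. Points are genes, black lines group medians (0.78, 0.90 and 0.49) and the dashed line marks a ratio of 0.6.

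Anti-apoptotic Bcl2 proteins, which hold the mitochondrial effectors in check, were above background for 3 of 5 genes in all pools. Bcl2l1, which encodes Bcl-xL, the family member best known for keeping differentiated neurons alive, read 1663.9, 1686.7 and 1077.0 in pools 1, 2 and 3 (mean 1476 ± 346, SD, n = 3). Pools 1 and 2 lay close together and pool 3 was lowest, a range of 1.57-fold. Mcl1, a short-lived protein of the same group, read 1008.9, 783.4 and 685.0, and was highest in pool 1. Bcl2l2, encoding Bcl-w, read 696.4, 590.7 and 888.7, and was highest in pool 3. The 3 genes thus had their highest pool in 3 different pools, with ranges of 1.47-fold to 1.57-fold. Bcl2, the founding member, was above background in pool 3 alone on its brightest set, with 327.6, 412.0 and 600.8. Bcl2l10, a further family member, was above background in no pool on either of its sets.

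Among multidomain pro-apoptotic proteins, all measured genes were above background in all pools. Bak1, which forms pores in the outer mitochondrial membrane, read 491.0, 557.6 and 602.5 (mean 550.4 ± 56.1, SD, n = 3), a narrow range of 1.23-fold. Bok, a relative that resides largely at the endoplasmic reticulum, read 704.7, 767.7 and 414.9. It was lowest in pool 3, a range of 1.85-fold. Bcl2l13, a mitochondrial outer membrane protein with Bcl2 homology motifs and a role in mitophagy, read 1092.5, 987.3 and 1036.0, with a range of 1.11-fold. Bax was not analysed here, since no probe set carried its name.

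BH3-only proteins link upstream signals to the Bcl2 family, and 2 of 4 genes were above background in all pools. Bcl2l11, encoding Bim, had a set at 374.5, 596.5 and 452.5 and a second at 424.4, 423.2 and 551.3. The former was above background in all pools and the latter in pools 1 and 3, whereas the third set was above it in none. Bad, which is inactivated by survival kinases, read 419.0, 552.6 and 489.8, on a set whose _i_at suffix marks an incomplete probe set. Its other set was not above background in any pool. Bid, which carries the caspase-8 signal to mitochondria, read 190.4, 206.1 and 273.8 and Bik 238.5, 66.5 and 333.2, all not above background.

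Bnip proteins were first found as partners of the adenoviral homologue of Bcl2, and 2 of 3 genes were above background in all pools. Bnip1, a SNARE of the endoplasmic reticulum, read 708.3, 625.5 and 681.9 (mean 671.9 ± 42.3, SD, n = 3). Bnip2 read 697.5, 736.8 and 670.5 on its plain set and 550.2, 925.8 and 480.5 on a set with the _r_at suffix, which marks relaxed probe selection. Both Bnip2 sets ranked the pools alike, with pool 2 highest and pool 3 lowest. Bnip3, a mitophagy receptor induced by low oxygen, read 366.8, 419.3 and 363.7, and missed the limit in pool 2 only.

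Of the proteins that act at and after mitochondria, Aifm1, a flavoprotein of the intermembrane space that can also drive caspase-independent death, was among the closest between pools. It read 837.7, 796.6 and 861.2 (mean 831.8 ± 32.7, SD, n = 3), a range of 1.08-fold. Apaf1, the scaffold of the apoptosome, read 353.8, 242.7 and 261.7 and was above background in pool 1 alone. Endog, a mitochondrial nuclease, read 306.9, 172.9 and 358.7 and was above it in pool 3 alone. Diablo, the antagonist of inhibitors of apoptosis, read 26.5, 86.4 and 37.4, not above background.

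The caspase family was split. Casp2, an initiator caspase abundant in developing brain, was the single caspase above background in every pool, at 1145.1, 1106.5 and 1066.8 (mean 1106 ± 39.2, SD, n = 3). Its range of 1.07-fold was narrow, and its second set, with the _f_at suffix of a family-matching set, was not above background in any pool. Casp9, the initiator of the mitochondrial route, had 4 sets, of which 3 were above background in 1 or 2 pools and none in all. The brightest Casp9 set read 400.8, 453.5 and 588.7. The inflammatory caspases Casp1, Casp4 and Casp12 read between 16.2 and 129.9 over the 3 pools. Casp6, an effector, read 79.6, 78.2 and 105.6, and Casp8, the initiator of the receptor route, read 10.4, 34.5 and 88.9. Casp14, the caspase of cornifying skin, was likewise not above background, at 92.6, 105.7 and 189.4. Casp8ap2, a large nuclear protein needed for histone transcript maturation, read 419.2, 608.7 and 313.3, and pool 3 was lowest and under its limit.

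Inhibitors of caspases were above background in all pools for 1 of 6 genes. Birc6, a giant ubiquitin ligase that binds caspases, read 658.5, 659.1 and 675.2 (mean 664.3 ± 9.47, SD, n = 3), a range of 1.03-fold. Birc2, encoding cIAP1, read 309.8, 555.2 and 387.0, with pool 1 lowest and under its limit. Xiap, the strongest direct caspase inhibitor of the family, read 183.6, 182.3 and 187.7 on its brightest set. These 3 signals lay close together although they were under the limit. Birc5, survivin, which is made in dividing cells, read 110.9, 124.4 and 63.1, Birc3 91.2, 89.3 and 176.0, and Cflar, the inhibitor of caspase-8 activation, 206.6, 161.5 and 163.2. All 3 genes were not above background in any pool.

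**Figure D3:**
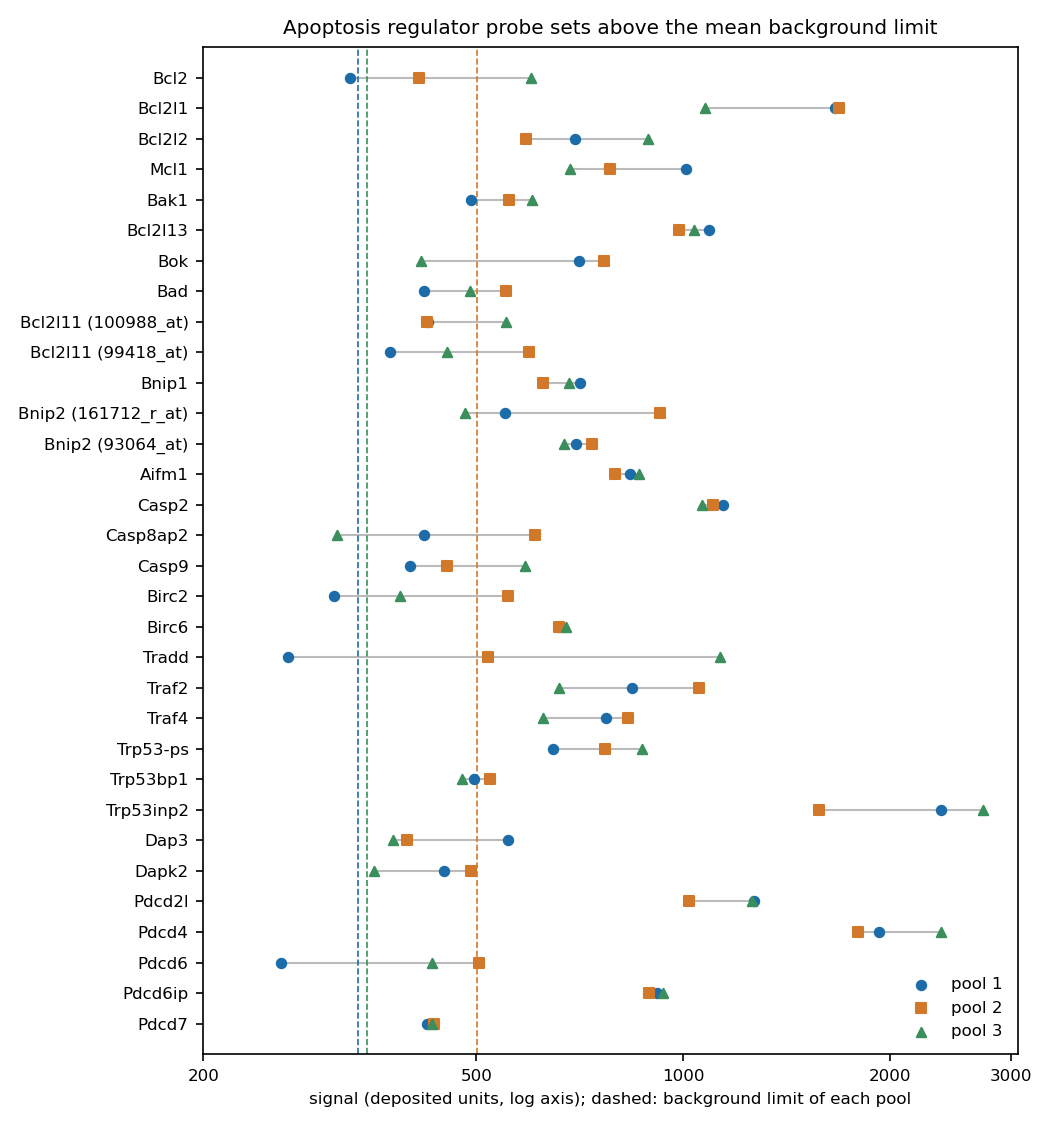
Signal in each pool (points, log axis, deposited units) of the 32 member probe sets whose mean exceeded the mean background limit of 394.8, ordered by role from Bcl2 proteins at the top. Grey lines span the 3 pools and dashed lines are the limits of pools 1 (336.7), 2 (501.6) and 3 (346.0). Tradd has the widest line, and Birc6, Pdcd7, Pdcd6ip, Casp2 and Aifm1 are among the narrowest.

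Among the members, the receptor side of the pathway was not above background at its ligands and receptors and partly so at its adaptors. A ligand set left out by the rule, since it carries the symbols Tnfsfm13 and Tnfsf12, read 511.6, 775.7 and 746.1, above background in all pools. Signals of the 14 TNF receptor sets ranged from 7.70 to 321.8 and those of the 5 ligand sets from 5.10 to 244.9. Tnfrsf1a, the main TNF receptor, read 192.7, 58 and 247.3 on its plain set, and Tnfsf10, TRAIL, read 91.5, 19.5 and 239.5. Tnfrsf21, death receptor 6, which acts in axon pruning, read 102.9, 310.6 and 199.1. Fas and its ligand Fasl, which the name pattern does not take in, read between 6.60 and 39.4 over both genes and all pools. Many of these receptors and ligands are immune genes. Of 7 measured microglia and leukocyte markers, 6 were not above background in any pool, the summed signal of the 7 being 971.6 to 1344.5. The other marker, Cx3cr1, was above background in all pools, at 452.1, 536.3 and 439.3. Whether the number of immune cells bears on the receptor and ligand signals was not tested.

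Of 8 adaptor genes, 2 were above background in all pools. Traf2, which recruits cIAP1 to TNF receptors, read 843.3, 1056.6 and 659.6 (mean 853.2 ± 199, SD, n = 3), and was highest in pool 2. Traf4, an adaptor with roles in neural tube and airway development, read 772.8, 831.5 and 625.4, in the same order of pools. Fadd, which links death receptors to caspase-8, read 203.0, 213.9 and 286.1, not above background. Traf1, Traf5, Traf6 and Traf3ip2 were not above it in any pool on any of their sets.

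Tradd, the adaptor of Tnfrsf1a, stood apart from the other members. It read 265.8, 519.5 and 1133.5 by pool, the value of pool 1 being under its limit. Pool 3 was therefore at least 3.37-fold higher than pool 1. It was the single member among 32 with a mean above the mean limit (3.12%) whose range exceeded 1 log2 unit (2-fold), against 11.2% of all such probe sets. The gene has 1 set, with the _r_at suffix. For the Actb control, the 3′ probe set over the 5′ one, which rises as RNA is shortened, gave 1.20, 1.44 and 1.69, the same order of pools. The Gapdh control gave 0.95, 0.88 and 0.93, another order. Their part in the Tradd result was not tested.

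Of the genes named for p53, 3 of 4 were above background in all pools, and of the death-associated and programmed cell death genes 3 of 11. Several of them have main functions outside apoptosis. Trp53inp2, which acts in autophagy and transcription, read 2379.2, 1575.0 and 2730.7, and was lowest in pool 2. Trp53bp1, a DNA break repair protein, read 495.2, 524.1 and 477.1, with a range of 1.1-fold. Of the sets annotated to Trp53-ps, a pseudogene of Trp53, one read 647.4, 769.3 and 872.6 and the other was not above background in any pool, and signal from the parent gene cannot be told apart on them. Trp53 itself was not analysed here. Pdcd4, an inhibitor of translation initiation, read 1928.5, 1799.9 and 2372.0 (mean 2033 ± 300.1, SD, n = 3). Pdcd2l read 1267.6, 1019.4 and 1259.4. Pdcd6ip, encoding Alix, a component of endosomal sorting, read 917.0, 891.7 and 933.4, with all pools close together. Pdcd7, a part of the minor spliceosome, read 423.1, 434.0 and 430.6, the closest agreement next to Birc6, though under the limit in pool 2. Dap3, a mitochondrial ribosomal protein, read 555.0, 396.8 and 377.7 and Dapk2, a death-associated kinase, 448.6, 490.4 and 355.2. Both missed the limit in pool 2 alone. Of the remaining genes of these groups, Pdcd6, a calcium-binding partner of Pdcd6ip, read 259.3, 504.9 and 431.3, and Dap, a regulator of autophagy, 493.2, 187.8 and 253.8. Trp53i13 read 330.6, 286.9 and 283.6 and Dapk3, another death-associated kinase, 225.6, 331.9 and 159.0, neither above background. Sets that carried several symbols lay outside the rule. Among them, the set for Pdcd5 and its pseudogene read 1151.7, 1548.8 and 1097.3, and that for Bnip3l, a mitophagy receptor, and its pseudogene 1589.0, 1750.7 and 1235.5.

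Spread between pools was described for members that exceeded background on average. Among the 32 sets with a mean above the mean limit, which represent 30 genes, the median SD of log2 signal was 0.23 and the median range 1.36-fold, beside 0.26 and 1.41-fold for all 4612 such probe sets. Without pool 3 the median SD was 0.13 for the members and 0.20 for all. A range under 1.1-fold was found in 7 of the 32 (21.9%), beside 6.07% of all. With the arrays scaled to a common median, it was found in 4 of the 32 (12.5%), beside 5.46%, so the count of steady members depends on the scaling. As deposited, the 7 were Birc6, Pdcd7, Pdcd6ip, Casp2, Aifm1, Trp53bp1 and a Bnip2 set. The 67 members not above the mean limit had a median SD of 0.56, beside 0.64 for all. Whether the members differ from other transcripts in spread was not tested.

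**Figure D4:**
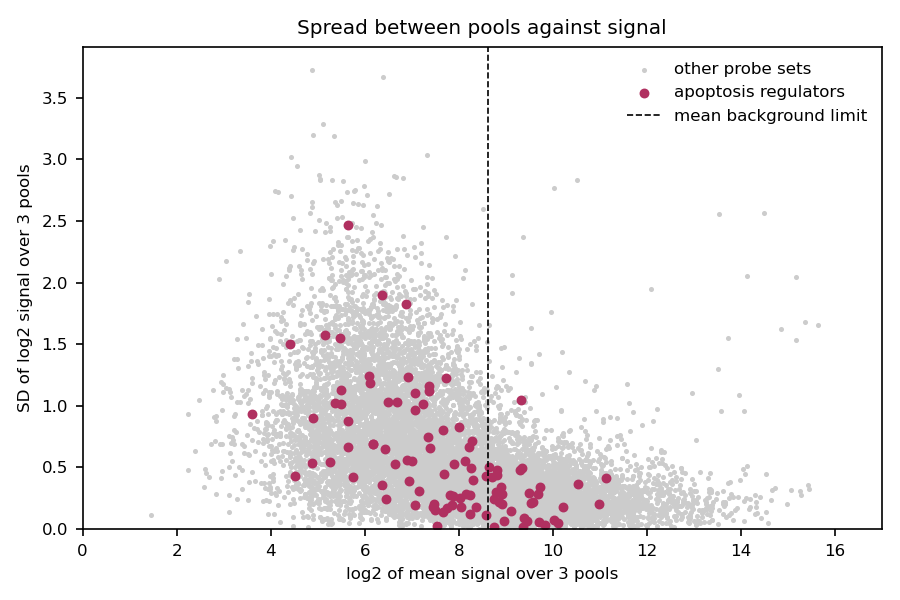
SD of log2 signal over the 3 pools (vertical axis) against log2 of the mean signal (horizontal axis) for member probe sets (red points) and all others (grey). The dashed line is the mean background limit, to the right of which 31 of 32 members have a range under 2-fold and Tradd lies above the other members.

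Median shifts of the members in each pool were small, since members went both ways. The median deviation of log2 signal from the mean over pools was -0.011 in pool 1, 0.0085 in pool 2 and 0.011 in pool 3, beside 0.023, 0.00091 and -0.015 for all probe sets above the mean limit. Signals of 5 lens markers differed strongly between the pools, with sums of 48961, 7409.5 and 164375, all 5 being above background in at least 1 pool. The labels record no lens tissue, and whether it was carried along with the retina was not tested. Blood markers varied too, summing to 21740, 4511.5 and 14756 over 3 genes. Of the 32 members, 6 (18.8%) had the order of the lens genes, lowest in pool 2 and highest in pool 3, beside 18.4% of all. These 6 included Bcl2l2, Pdcd4 and Trp53inp2, and the part of lens RNA in their ranges was not tested. The commonest order, lowest in pool 3 and highest in pool 2, was found for 9 members (28.1%), among them Bcl2l1, Bok, Traf2 and Traf4, beside 19.5% of all. Retinal markers varied by cell type. The rod gene Sag read 22065.8, 24853.5 and 34553.8, and all 4 rod and all 4 Müller glia markers were above background in every pool, as were all 3 amacrine markers. Of 3 cone and 3 ganglion cell markers 2 each were, but neither of the 2 bipolar cell markers, Prkca at 442.6, 442.9 and 356.7 and Trpm1 at 217.7, 357.6 and 422.5. Of 5 pigment epithelium markers 4 were not above background in any pool. Over the 32 members, Pearson's r of log2 signal was 0.89 for pools 1 and 2, and 0.76 and 0.74 for pool 3 against pools 1 and 2, across genes that share the arrays. Over all 4612 probe sets above the mean limit, it was 0.90 for pools 1 and 2, and 0.91 and 0.88 for pool 3 against pools 1 and 2. Whether the members differ from other transcripts in this was not tested. The r values also cover unlike ranges of signal. Mean signal of the 32 members reached 2228 (Trp53inp2), whereas all 4612 sets include means as high as 37099 (Cryaa).

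For 20 genes, several probe sets (46 in all) could be compared. Sets of the same gene often fell on different sides of the limit. In 8 of the 20 genes, one set was above background in all pools and another in none. They were Bad, Bcl2l1, Bcl2l11, Bnip1, Casp2, Pdcd6ip, Traf4 and Trp53-ps. For Bcl2l1 the dim set read 99.5, 48.6 and 111.9 where the bright set was at least 1077.0. All sets were above background in all pools for 1 gene, Bnip2, and in no pool for 6 genes. The highest pool was the same on all sets for 4 of the 20 genes. Most statements on a single gene above therefore rest on 1 of its sets. The counts over these 20 genes were not made for the other genes of the array, so they cannot be read as particular to the members.

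**Figure D5:**
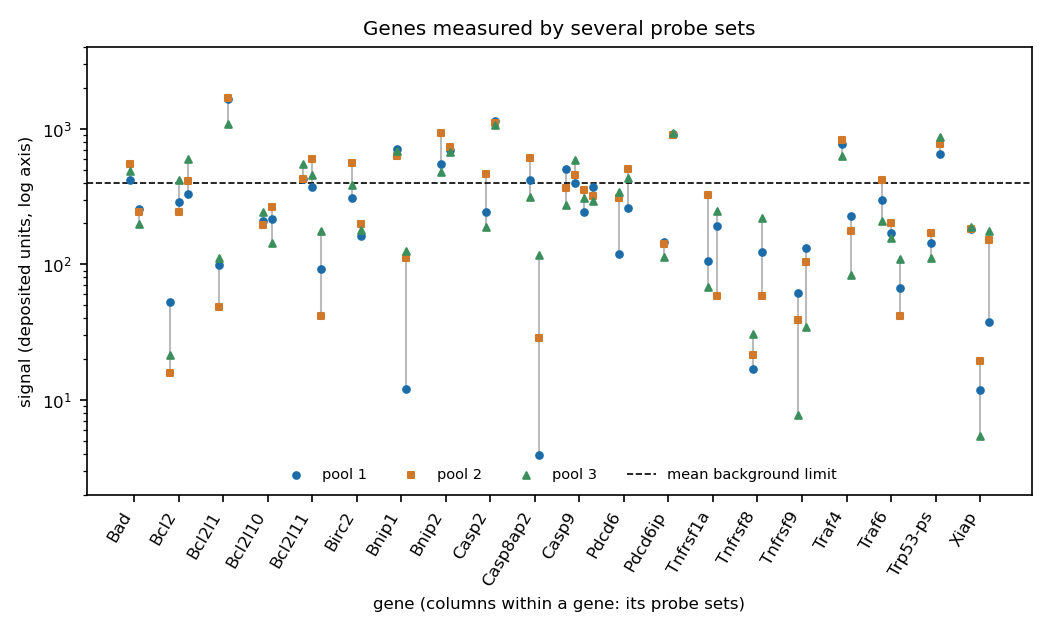
Signal in each pool (points, log axis, deposited units) for the 20 member genes with several probe sets, each column within a gene being 1 set and the grey line its range over the 3 pools. The dashed line is the mean background limit (394.8), and the sets of Bcl2l1, Casp2, Pdcd6ip and Traf4 lie on both sides of it.

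Other genes of the pathway were taken from lists by function, each gene by its brightest set, and their counts are to be read beside the 36.3% of all genes above background in all pools and the 46.2% above it in none. Of 16 measured p53 targets and regulators, 8 were above background in all pools and 3 in none. Mdm2, the ubiquitin ligase of p53, read 699.0, 802.1 and 648.3, its relative Mdm4 968.1, 771.2 and 749.6, and Cdkn1a, the p21 cell cycle inhibitor, 512.0, 553.8 and 771.4. Gadd45a, a DNA damage response gene, had a range over 2-fold, at 522.3, 475.6 and 1063.5, in the order of the lens genes and under the limit in pool 2.

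Of 17 caspase substrates, nucleases and mitochondrial partners, 7 were above background in all pools and 4 in none. Dffa, the inhibitor of the caspase-activated nuclease, read 1543.4, 988.7 and 1000.6, whereas the nuclease itself, Dffb, read 96.4, 171.0 and 74.8. Parp1, a DNA repair enzyme cut by caspases, read 525.3, 418.8 and 359.2, and Lmnb1, a lamin, 440.2, 357.4 and 374.7. Both were above background in pools 1 and 3. Hspd1, a mitochondrial chaperonin, was lowest in pool 3, at 1731.7, 2262.9 and 1040.5.

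Of 17 genes for the clearance of dying cells, 7 were above background in all pools and 7 in none. The phagocyte receptors Mertk, Axl and Tyro3 were not above it in any pool, with Mertk at 187.1, 193.2 and 168.6. Their ligand Gas6 read 802.2, 569.6 and 1303.5, in the order of the lens genes. Abca1, a lipid exporter, read 599.6, 912.9 and 411.7, and a second set of it, highest in pool 1 instead, read 662.5, 381.5 and 411.3.

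Survival signalling genes were above background in all pools for 11 of 15 measured, and 8 of these 11 were highest in pool 1, beside 33.5% of all probe sets above the mean limit. Akt1, a survival kinase, read 1379.8, 842.3 and 576.7, and its relative Akt2 732.8, 532.2 and 606.6. Pik3r1, the regulatory subunit of PI3-kinase, read 1183.7, 739.6 and 559.5. Igf1r, the receptor of the trophic factor Igf1, read 2290.7, 1775.5 and 1022.1. Akt1, Pik3r1 and Igf1r had the same order of pools, pool 1 highest and pool 3 lowest, each with a range over 2-fold. The median deviation of the 11 genes in pool 1 was 0.40 on the log2 scale, beside 0.023 for all probe sets. This list was not tested. Pik3ca, the catalytic subunit, read 1159.3, 731.7 and 604.9, and a second set of it, 481.4, 588.6 and 425.1, was highest in pool 2.

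NF-kB genes were above background in all pools for 4 of 14 measured and in none for 9, the former below the share of all genes. Rela, the transactivating subunit, read 1449.5, 1197.9 and 1527.1, whereas Nfkb2 (198.9, 151.0 and 171.4), Relb (253.4, 132.4 and 89.2) and Rel (42.5, 57.2 and 142.9) were not above background. Of 17 autophagy and other protease genes, 13 were above background in all pools and 1 in none. Becn1, a Bcl2-binding autophagy protein, read 1801.9, 1732.7 and 1444.5, and Atg12 1165.5, 1712.3 and 945.2. Atg5 was above background in pools 1 and 3, at 383.7, 429.0 and 403.5, and Atg7 in pool 3, at 203.7, 314.0 and 474.4. Sqstm1, an autophagy receptor, read 1235.3, 1008.7 and 2363.6, also in the order of the lens genes.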

How the data were processed

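The deposited table holds 1 linear intensity for each of 12488 probe sets on each array, per the labels from total RNA of the pooled retinas. The sources used here do not give how the authors condensed probe readings into this intensity. Trimmed by 2% at each end, the arrays' means were 500.2 to 500.3, so the intensities were used as deposited. The number of arrays limits the precision.

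Names came from GEO's platform annotation. Of 12422 non-control probe sets, 10833 had 1 symbol, 396 several and the rest none. The 6 sets that match the pattern but carry several symbols were left out by the rule. The members, roles, lists and limit genes were chosen with earlier results of these data known, the roles and the motifs after member names or values were seen. Before taking log2, a floor of 1 was set. A gene of another list was represented by its probe set of highest mean. Named genes were all members above background in all pools, core members, members above the mean limit with a range over 1 log2 unit, the first 4 measured genes of each other list with those of its genes above the mean limit whose range exceeded 1 log2 unit, and other members and markers chosen after their values were seen to complete a group. Other settings (limit, scaling, floor, probe sets, pools left out) were tried. Summaries were tested on simulated data with known spread and shift. Python 3.11.15, pandas 2.3.3 and matplotlib 3.10.9 were used.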

Additional observations from a re-analysis of the deposited data

How the results depend on the processing

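The counts rest on the background limit. With the 95th percentile of the other-tissue probe sets, 13 members and 13 member genes were above it in all pools. With the 80th percentile these were 40 and 34, with 36 members in no pool, and with each array's median as the limit they were 37 and 32. The members' share above the limit in all pools stayed below that of all probe sets under each of these limits, at 13.1% against 21.5%, 40.4% against 44.4% and 37.4% against 42.1%. With a limit from plain _at other-tissue sets, chosen after seeing the data, it was 29.3% against 35.6%. The share above the limit in no pool changed direction with the limit. It was higher in the members at the 95th percentile (76.8% against 67.7%) and with the plain _at limit. It was lower in the members at the 80th percentile (36.4% against 39%) and with the array median (40.4% against 41.9%). At the 80th percentile, 6 of the 14 TNF receptor sets and 2 of the 5 ligand sets exceeded the limit in some pool, 1 receptor set in all, and with the array median 5 and 1 did so in some pool. Receptor and ligand sets above it in no pool were 8 and 3 at the 80th percentile, beside 39% of all probe sets. With the array median they were 9 and 4, beside 41.9% of all. Averaging all sets of a gene left 14 members above the limit in all pools. The count of members with a range over 1 log2 unit, 1 as reported, was 6 at the 80th percentile limit, 5 with the array median and 0 with plain _at sets, since Tradd has none. Leaving out a pool gave 0 to 1 such members, the 0 without pool 3. Without a pool, 23 to 28 members were above the limit in all remaining pools, 60 to 64 in none, and 22 to 26 genes in all. The count of members with a range under 1.1-fold, 7 as reported, was 4 after scaling to a common median, 4 with the sets of a gene averaged, and 10 to 13 on leaving out a pool, where all such ranges narrow (alternatives for it chosen after seeing the data). Apart from that count under common-median scaling, neither it, quantile normalization, a floor of 32 nor updated symbols moved the counts above by over 1.5 times. No paired analysis was possible because there is 1 group.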
